A study of Mus musculus with 7 samples.

Results

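The genes described are 35 genes of mitosis, the stage of the cell cycle in which duplicated chromosomes are condensed, attached to a spindle and pulled apart. They were taken as a list of gene names and matched by name, and all 35 were found among the 54532 genes of the deposited tables and among the 17975 genes with enough counts to be tested. The mouse olfactory epithelium makes sensory neurons throughout life from dividing basal cells. Purified cells of 2 stages of this lineage were profiled by RNA sequencing of polyadenylated RNA, each library from pooled cells sorted by fluorescence. The OMP-GFP line supplied 3 libraries of mature olfactory sensory neurons, from postnatal days 2, 7 and 16, written P2, P7 and P16. The Neurog1-GFP line supplied 4 libraries of progenitors, labelled as intermediate progenitor cells, 1 each from P3, P7, P9 and P16. Each population comes from a mouse line of its own, so population and line cannot be told apart. With a single library for every age, ages stand in for replicates. Since nothing in the labels ties a library to its own animals, the p-values measure only the spread between these libraries.

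As background, entry into mitosis is driven by the kinase Cdk1 bound to a cyclin, progress through it is controlled by further kinases and by a checkpoint that waits until every chromosome is attached, and exit from it follows the destruction of the cyclins through the anaphase-promoting complex (APC/C). Transcripts of these genes accumulate together in the G2 phase and mitosis and are kept low in resting cells by a repressor complex called DREAM. In the olfactory epithelium the globose basal cells and the neuronal precursors that express Neurog1 divide, and differentiated sensory neurons do not.

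Counts on genes ranged from 24203965 to 25930727 per library. The genes that the lines are named for were checked first. Neurog1 was at 698, 292, 416 and 324 TPM (a level scaled for transcript length and to a fixed library total) in progenitors at P3, P7, P9 and P16, and at 1.09, 1.85 and 0.84 TPM in the mature neuron libraries (P2, P7, P16). Omp, the marker of mature neurons, was high in both populations, at 1066 to 1630 TPM in mature neurons and 1323 to 2371 TPM in progenitors, so Omp alone does not separate them. Of 12 mature neuron markers 11 rose in mature neurons and 0 fell, and all 10 markers of globose basal cells and neuronal precursors fell (edgeR, adjusted p under 0.05 over all tested genes).

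Mature neurons held less of the transcript of each of the 35 genes than progenitors, and in none of them did the libraries of the populations overlap. The 35 transcripts summed to 1359, 922, 878 and 825 TPM in progenitors at P3, P7, P9 and P16, and to 230, 189 and 125 TPM in the mature neuron libraries (P2, P7, P16). The mean sum of mature neurons (181 ± 52.5 TPM, SD, n = 3) was 18.2% of that of progenitors (996 ± 245 TPM, SD, n = 4). In raw counts the members held between 0.132% and 0.215% of all gene counts in a progenitor library and between 0.01995% and 0.0378% in a mature neuron library, with exact 95% binomial intervals, for counting error only, of 0.131% to 0.133% for the lowest progenitor share and 0.0370% to 0.0386% for the highest mature neuron share. In bulk libraries fewer dividing cells and less transcript per cell cannot be told apart.

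Every member passed the test of the difference between populations (35 of 35 lower, edgeR quasi-likelihood test, adjusted p from 1.29e-05 to 0.0362), with a median log2 fold of -2.44 for mature neurons over progenitors. Over all 17975 tested genes 58.8% were called, 30% lower and 28.8% higher, and the median log2 fold was 0.01. On log2(TPM + 0.1) limma called 10267 genes, 6274 of them lower, which is 34.9% of all tested. At least a 2-fold drop was called for 33 members (13.6% of all tested genes), and at least a 4-fold drop for 27 (6.13% of all). The libraries did not overlap, with mature neurons lower, for 35 of 35 members and for 32.2% of all tested genes. The list was chosen with earlier results of these libraries known, so its direction is not independent evidence.

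**Figure D1:**
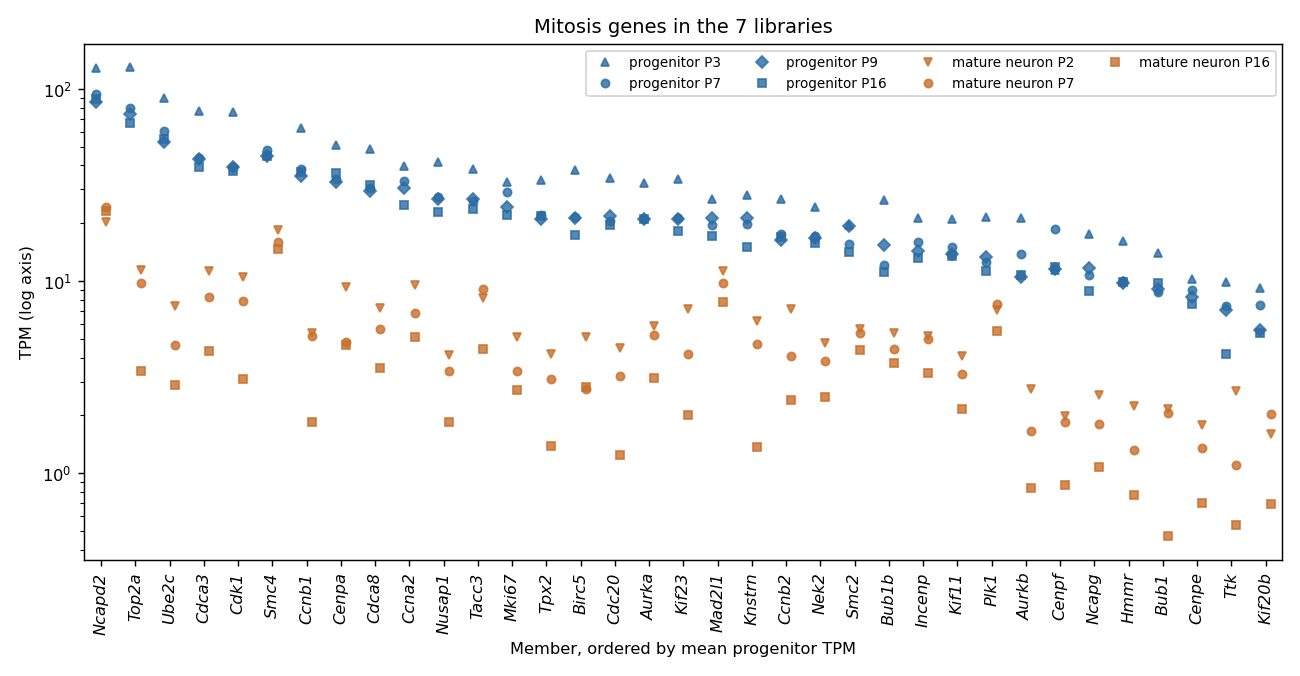
TPM of each of the 35 members (log axis, ordered by mean progenitor TPM) in the 4 progenitor libraries (blue) and the 3 mature neuron libraries (orange), with 1 point per library and a marker for each age. Each blue set lies above the orange set of the same gene, the P3 progenitor point is usually the highest and the P16 mature neuron point usually the lowest.

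The promoters of the members were searched for the sequence elements through which mitotic genes are known to be regulated, and 6 of them are shown: those of the 3 members with the largest and the 3 with the smallest fold on counts among the 30 members with an entry in the RefSeq promoter table (GRCm38.p6). The elements are the CHR element TTTGAA, which the DREAM complex binds through its subunit Lin54, the CCAAT box, bound by NF-Y, and TTTNNCGC, a form of the E2F site. Both strands were searched, so TTCAAA and ATTGG are matches too. Each sequence runs 5′ to 3′ on the gene's strand from 150 bases before the annotated start to 30 bases after it, and capitals mark the matches.
Ccnb1 (chr13:100786457-100786636, minus strand): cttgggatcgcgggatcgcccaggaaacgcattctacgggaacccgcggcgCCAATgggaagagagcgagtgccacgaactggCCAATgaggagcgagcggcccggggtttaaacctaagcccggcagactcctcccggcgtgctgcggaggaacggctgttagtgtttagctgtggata
Ube2c (chr2:164769779-164769958, plus strand): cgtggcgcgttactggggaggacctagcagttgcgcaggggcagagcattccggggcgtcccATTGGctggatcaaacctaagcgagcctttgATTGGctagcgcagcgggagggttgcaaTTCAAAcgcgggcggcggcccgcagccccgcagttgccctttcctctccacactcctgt
Top2a (chr11:99024160-99024339, minus strand): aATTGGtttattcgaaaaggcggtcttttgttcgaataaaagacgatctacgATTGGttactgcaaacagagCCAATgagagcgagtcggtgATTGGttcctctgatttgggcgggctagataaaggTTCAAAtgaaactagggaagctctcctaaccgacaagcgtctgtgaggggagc
Smc2 (chr4:52439071-52439250, plus strand): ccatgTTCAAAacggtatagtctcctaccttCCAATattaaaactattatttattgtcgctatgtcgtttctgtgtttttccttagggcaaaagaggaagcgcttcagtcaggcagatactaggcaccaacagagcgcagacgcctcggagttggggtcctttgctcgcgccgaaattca
Mad2l1 (chr6:66535071-66535250, plus strand): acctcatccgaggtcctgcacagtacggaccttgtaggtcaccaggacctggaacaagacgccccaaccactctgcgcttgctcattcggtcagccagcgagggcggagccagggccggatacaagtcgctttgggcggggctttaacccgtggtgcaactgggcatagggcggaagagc
Plk1 (chr7:122159285-122159464, plus strand): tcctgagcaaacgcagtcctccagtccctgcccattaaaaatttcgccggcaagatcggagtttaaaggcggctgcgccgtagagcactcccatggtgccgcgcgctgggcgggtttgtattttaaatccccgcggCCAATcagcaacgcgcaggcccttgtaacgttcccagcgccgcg
In these stretches Ccnb1 holds 2 CCAAT boxes, Ube2c 2 CCAAT boxes and 1 CHR element, and Top2a 4 CCAAT boxes and 1 CHR element. Smc2 holds 1 CCAAT box and 1 whole CHR element, Plk1 1 CCAAT box and Mad2l1 none of the elements. The stretch of Mad2l1 ends at 66535250, short of the gene's start in GENCODE (66535390), and its whole entry also ends before that start. Bases next to the GENCODE start of Mad2l1 were therefore not searched. The TTTGAA of Plk1 begins 31 bases after the start, just past the stretch shown. Another TTTGAA match of Smc2 begins 27 bases after the start and is cut by the end of the stretch, so it is not in capitals.

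Over the whole entries, from 250 bases before to 50 bases after the start, 21 of 30 members held TTTGAA, which is 70% of them against 16% of the 12843 tested genes with an entry. A CCAAT box was found in 24 of 30 members (80% against 42.5%), and 17 of 30 held at least 2 (56.7% against 15.5%). Both elements stood in the same entry for 20 members, or 66.7% against 6.48%. For TTTNNCGC the shares were near each other, with 3 of 30 members (10%) and 8.66% of tested genes. Over the members' entries 2 matches shared bases with another match. Of the 27 TTTGAA matches in the members 20 began within 50 bases of the start, a count not made over tested genes. A match is a description of the letters and not a measured binding site. The 21 members with TTTGAA had a median log2 fold of -2.44 and the 9 without it -2.66. For the CCAAT box the order was the other way, -2.55 in the 24 members with it and -2.25 in the 6 without.

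**Figure D2:**
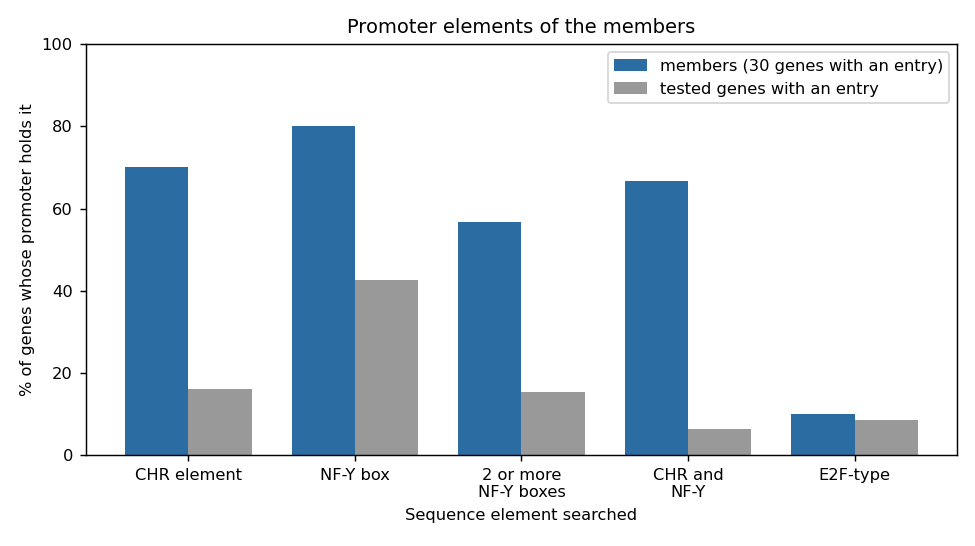
Share of genes (%) whose promoter entry, from 250 bases before to 50 bases after the start, holds each element, for the 30 members with an entry (blue) and for all tested genes with an entry (grey); the NF-Y box is the CCAAT box. The bars of the members stand at 70% and 80% for the CHR element and the NF-Y box, and at 10% for the E2F-type element, where the grey bar is at 8.66%.

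Cdk1 and the cyclins, which together form the engine of mitotic entry, fell in mature neurons (4 of 4). Cdk1, the catalytic subunit, was at 75.5, 39.5, 39.2 and 37.6 TPM in progenitors at P3, P7, P9 and P16 and at 10.5, 7.93 and 3.11 TPM in the mature neuron libraries (P2, P7, P16). Its log2 fold was -2.56 (SE 0.45, edgeR adjusted p = 0.00152). The P3 progenitor library was the highest and the P16 mature neuron library the lowest, with no overlap. Ccnb1, cyclin B1, the main mitotic partner of Cdk1, stood at 62.5, 38.3, 35.3 and 37.2 TPM in progenitors and 5.35, 5.19 and 1.85 TPM in mature neurons. Its log2 fold of -3.81 (SE 0.38, edgeR adjusted p = 8.07e-05) was the largest of the members on counts. That value rests on few reads, 286 to 536 per progenitor library and 11 to 33 per mature neuron library. Its CPM per kilobase of exon (CPM, counts scaled to a fixed library total) was 0.079 times its TPM, the lowest such ratio among members, whose median was 0.341. Reads that map to several places are listed apart in the count table, and their part in this ratio was not tested. On log2(TPM + 1), which uses the other table, its log2 fold was -3.16 by limma, and those of Ube2c (-3.50) and Top2a (-3.35) were larger. The order was the same on log2(TPM + 0.1), with -3.46 for Ccnb1, -3.74 for Ube2c and -3.52 for Top2a. Ccnb2, cyclin B2, went from 26.8, 17.6, 16.3 and 16.9 TPM to 7.16, 4.09 and 2.4 TPM (log2 fold -1.94, SE 0.35). Ccna2, cyclin A2, which acts in S phase and at mitotic entry, was at 39.8, 33.1, 30.6 and 24.8 TPM and 9.52, 6.83 and 5.15 TPM (log2 fold -2.04, SE 0.25). Of the cyclins, Ccnb1 had the highest and Ccnb2 the lowest mean TPM in progenitors, 43.3 ± 12.9 and 19.4 ± 4.95 TPM (SD, n = 4).

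Among the mitotic kinases Aurka and Nek2 fell about alike, and Plk1 fell least of all members. Aurka, the kinase of the centrosome and spindle poles, was at 32.6, 21, 21.1 and 21 TPM in progenitors by age and at 5.84, 5.27 and 3.13 TPM in mature neurons (log2 fold -2.20, SE 0.26). Nek2, a kinase of centrosome separation, was at 24.2, 17.3, 16.8 and 15.9 TPM and 4.77, 3.86 and 2.49 TPM (log2 fold -2.16, SE 0.23). Plk1, a kinase with tasks from mitotic entry to cytokinesis, was at 21.6, 12.6, 13.4 and 11.3 TPM in progenitors and 7.07, 7.59 and 5.53 TPM in mature neurons. It was below Nek2 in every progenitor library and above Nek2 in every mature neuron library. The log2 fold of Plk1 was -0.72 (SE 0.25, edgeR adjusted p = 0.0362), and mature neurons kept 45.8% of the mean progenitor TPM against 20% for Nek2. The call on Plk1 was lost without the P2, P7 or P16 mature neuron library or the P9 progenitor library (edgeR adjusted p = 0.0751, 0.0626, 0.0846 and 0.0507). Restricted to P7 and P16, with age as the block, its log2 fold was -0.43 (edgeR adjusted p = 0.110). Over all alternatives its adjusted p lay between 0.0039 and 0.110. Without the P3 progenitor library its log2 fold was -0.46.

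The chromosomal passenger complex, which corrects faulty attachments and later directs cytokinesis, fell in all 4 subunits. Aurkb, its kinase, was at 21.4, 13.8, 10.5 and 10.8 TPM in progenitors and 2.75, 1.67 and 0.84 TPM in mature neurons (log2 fold -2.72, SE 0.41). Birc5, survivin, was at 37.8, 21.5, 21.3 and 17.3 TPM and 5.15, 2.75 and 2.83 TPM (log2 fold -2.72, SE 0.33), and Cdca8, borealin, at 48.6, 30.4, 29.6 and 31.6 TPM and 7.23, 5.62 and 3.53 TPM (log2 fold -2.62, SE 0.29). These 3 subunits had like folds. Incenp, the scaffold that holds the complex together, went from 21.3, 16.1, 14.3 and 13.1 TPM to 5.17, 4.99 and 3.32 TPM, a smaller log2 fold of -1.73 (SE 0.22). In mature neurons 27.8% of its mean progenitor TPM was left, against 12.4% for Aurkb.

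Spindle checkpoint genes, whose products hold back anaphase, fell 4 of 4 but by unequal amounts. Bub1, a checkpoint kinase, was at 14.1, 8.81, 9.06 and 9.74 TPM in progenitors and 2.16, 2.06 and 0.47 TPM in mature neurons (log2 fold -2.66, SE 0.47). Its P16 mature neuron value was the lowest of any member in any library. Ttk, the Mps1 kinase, was at 9.89, 7.4, 7.08 and 4.18 TPM and 2.68, 1.1 and 0.54 TPM (log2 fold -2.16, SE 0.42), and Bub1b, the checkpoint protein BubR1, at 26.5, 12.1, 15.4 and 11.2 TPM and 5.36, 4.44 and 3.76 TPM (log2 fold -1.89, SE 0.30). Mad2l1, the Mad2 protein that binds Cdc20 in the active checkpoint, had a log2 fold of -0.91 (SE 0.16), the smallest after Plk1. It stood at 26.9, 19.6, 21.3 and 17.1 TPM in progenitors and at 11.2, 9.78 and 7.76 TPM in mature neurons, and was the third most abundant member there by mean TPM.

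The 3 members of ubiquitin-dependent exit all fell, and as a group kept 11.4% of their summed progenitor TPM, the lowest of the 8 roles. Ube2c, the conjugating enzyme that works with the APC/C, was at 89.6, 60.4, 53.2 and 55 TPM in progenitors and 7.39, 4.66 and 2.87 TPM in mature neurons. Its log2 fold was -3.60 (SE 0.33, edgeR adjusted p = 5.3e-05), and 7.71% of the mean progenitor TPM was left, the lowest share of any member. Cdc20, the APC/C activator of anaphase, was at 34.4, 20.6, 21.8 and 19.6 TPM and 4.47, 3.22 and 1.24 TPM (log2 fold -2.93, SE 0.47). Cdca3, a protein of mitotic entry that acts through ubiquitin ligation, went from 76.6, 43.6, 43.1 and 39.1 TPM to 11.2, 8.29 and 4.33 TPM (log2 fold -2.40, SE 0.30).

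All 4 centromere and kinetochore members fell by similar amounts, with log2 folds from -2.77 to -2.26. Cenpa, the histone H3 variant that marks centromeres, was at 51.4, 33.9, 32.8 and 36.7 TPM in progenitors and 9.34, 4.85 and 4.64 TPM in mature neurons (log2 fold -2.53, SE 0.26). Cenpe, a kinetochore motor, was at 10.2, 8.99, 8.32 and 7.58 TPM and 1.79, 1.36 and 0.7 TPM (log2 fold -2.71, SE 0.28), and Knstrn, a partner of the spindle and kinetochore, at 28, 19.8, 21.2 and 15 TPM and 6.24, 4.73 and 1.37 TPM (log2 fold -2.26, SE 0.42). Cenpf, a large outer kinetochore protein, was the one member whose highest progenitor library differed between the tables. In TPM its progenitor values were 11.5, 18.7, 11.6 and 11.9 at P3, P7, P9 and P16, highest at P7, while in CPM they were 65.3, 62.9, 52 and 51.5, highest at P3. In mature neurons it was at 1.99, 1.85 and 0.87 TPM (log2 fold -2.77, SE 0.32).

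Of the 7 genes of the spindle and its motors all fell, to 16.9% of their summed progenitor TPM. Nusap1, which bundles spindle microtubules, was at 41.6, 27.5, 26.6 and 22.9 TPM in progenitors and 4.14, 3.41 and 1.86 TPM in mature neurons (log2 fold -3.09, SE 0.31). Tpx2, the activator of Aurka on the spindle, was at 33.8, 22, 21.1 and 21.7 TPM and 4.19, 3.08 and 1.39 TPM (log2 fold -2.97, SE 0.39), and Hmmr, another spindle pole protein, at 16.2, 10.1, 9.78 and 9.92 TPM and 2.23, 1.33 and 0.77 TPM (log2 fold -2.93, SE 0.39). These 3 had the largest folds of the group. The kinesins followed. Kif11, the motor that pushes the poles apart, was at 20.9, 15, 13.8 and 13.6 TPM and 4.1, 3.3 and 2.16 TPM (log2 fold -2.19, SE 0.24). Kif23, a motor of the central spindle in cytokinesis, was at 33.9, 21.4, 21 and 18.3 TPM and 7.16, 4.18 and 2 TPM (log2 fold -2.44, SE 0.36), and Kif20b, another kinesin of cytokinesis, at 9.21, 7.56, 5.54 and 5.39 TPM and 1.6, 2.04 and 0.69 TPM (log2 fold -2.24, SE 0.35). Kif20b had the lowest mean progenitor TPM of all members. Tacc3, a centrosomal protein that stabilises kinetochore fibres, had the smallest fold of the group, from 38.4, 26.3, 26.7 and 23.9 TPM to 8.2, 9.11 and 4.42 TPM (log2 fold -1.90, SE 0.25).

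The genes of chromosome structure fell 6 of 6, with log2 folds from -3.36 to -1.36. Top2a, the topoisomerase that untangles sister chromatids, was at 129, 79.2, 74.5 and 66.2 TPM in progenitors and 11.4, 9.81 and 3.39 TPM in mature neurons (log2 fold -3.36, SE 0.39). Mki67, the antigen that coats mitotic chromosomes and the usual marker of dividing cells, was at 32.9, 29.1, 24.4 and 22 TPM and 5.12, 3.42 and 2.7 TPM, with 13.8% left. The other 4 are subunits of condensin. Ncapg, a subunit of condensin I alone, was at 17.6, 10.8, 11.8 and 8.92 TPM and 2.56, 1.81 and 1.08 TPM (log2 fold -2.66, SE 0.34). Smc2 and Smc4, the ATPase pair of both condensins, kept more of their level. Smc2 went from 19.5, 15.7, 19.3 and 14.2 TPM to 5.66, 5.4 and 4.37 TPM (log2 fold -1.73, SE 0.16). Smc4 was at 45.2, 48.4, 44.6 and 45.1 TPM in progenitors, nearly level over the ages, and at 18.4, 15.9 and 14.6 TPM in mature neurons, and its log2 fold of -1.36 had the smallest standard error of the members (SE 0.09). Ncapd2, the other condensin I subunit, was the most abundant member by mean TPM in both populations, at 129, 93.8, 85.4 and 88.3 TPM and 20.3, 24.3 and 23.2 TPM (log2 fold -2.01, SE 0.15). The annotated exons of Ncapd2 share 237 bases with the small RNA Scarna10 and 235 bases with Gm28967 on the same strand, and the part of those reads in its level was not tested.

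**Figure D3:**
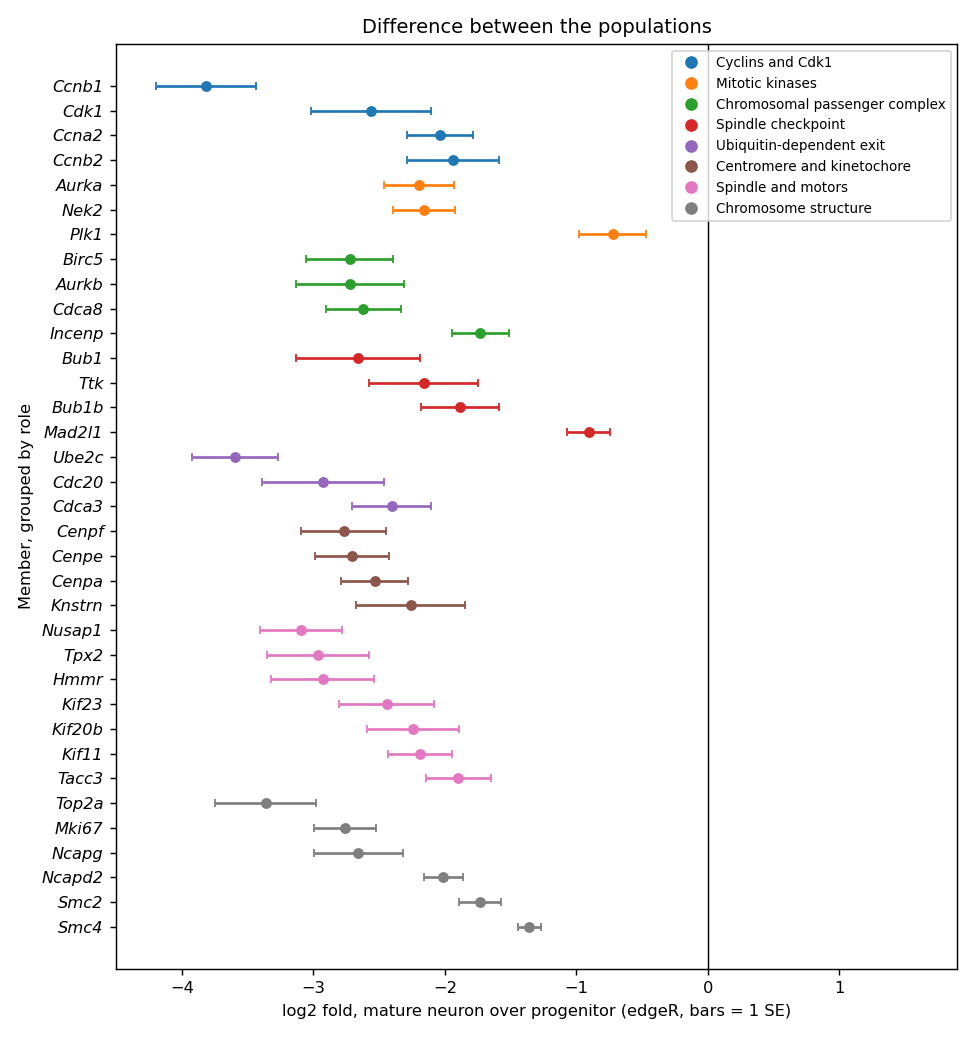
Log2 fold of mature neurons over progenitors for each member (edgeR, n = 3 and n = 4 libraries; bars are 1 SE), coloured and grouped by role. All 35 points lie left of 0, from -3.81 for Ccnb1 to -0.72 for Plk1.

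The share of a transcript left in mature neurons ranged from 7.71% for Ube2c to 45.8% for Plk1 of the mean progenitor TPM, with a median of 16.2%. The members with over 25% left were Plk1, Mad2l1, Smc4, Smc2, Incenp, Bub1b and Tacc3. At P7, an age sampled in both populations, the median share was 19.5% and ranged from 7.72% to 60.2%. At P16, the other shared age, it was 12.3% and ranged from 4.83% (Bub1) to 49.1% (Plk1). The P16 share was the smaller one for 31 of 35 members, and each age has 1 library per population, so this difference has no test. The same count over all tested genes was not made. Summed markers of globose basal cells and neuronal precursors were at 9.82% at P7 and 4.8% at P16, and those of immature neurons at 39.9% and 41.2%. Over the same libraries the 10 markers of globose basal cells and neuronal precursors summed to 60.2 to 134 TPM in mature neurons and 1255 to 1773 TPM in progenitors, a ratio of means of 7.02%, with Neurod2 listed at 0 in every mature neuron library. The part of such cells in the mitotic transcripts of the mature neuron pools was not tested.

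**Figure D4:**
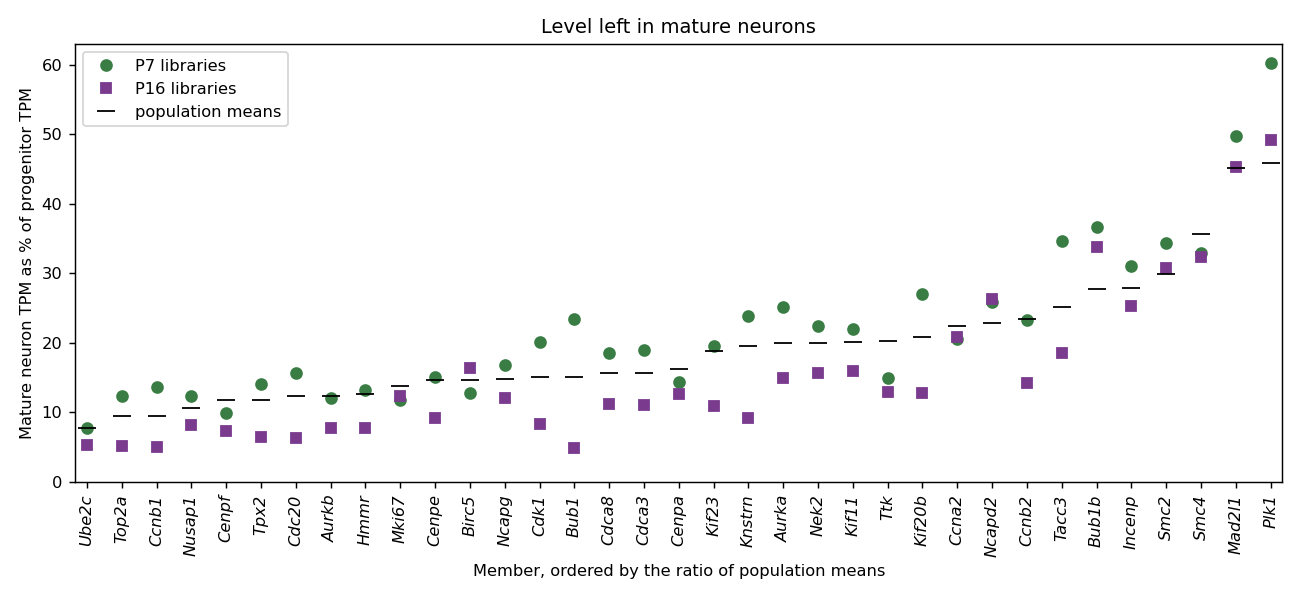
Mature neuron TPM as a percentage of progenitor TPM for each member, ordered by the ratio of the population means (dashes), with the ratio of the P7 libraries (green circles) and of the P16 libraries (purple squares). The dashes run from 7.71% for Ube2c to 45.8% for Plk1. For 31 of 35 members the P16 square lies below the P7 circle, a count not made over all tested genes.

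Within each population most members were highest in the youngest library. In CPM the P3 library was the highest of the 4 progenitor libraries for 34 of 35 members (31.3% of all tested genes), and P2 the highest of the 3 mature neuron libraries for 33 of 35 (34.2% of all). P16 was the lowest mature neuron library for 33 of 35 (42.1% of all). P3 and P2 were both the highest for 32 members, and for 14.2% of all tested genes. In TPM the P3 progenitor library was at a median of 1.56 times the mean of the later 3 over the members (range 0.817 for Cenpf to 2.06 for Bub1b). The P2 mature neuron library was at a median of 2.29 times the P16 library, from 0.873 for Ncapd2 to 4.96 for Ttk. After P3 the progenitor libraries differed little, with member sums of 922, 878 and 825 TPM, whereas mature neurons went from 189 TPM at P7 to 125 TPM at P16.

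No age slope passed the test after adjustment. With a common slope, given as the log2 change for each doubling of age, all 35 members had a slope below 0 (median -0.35, range -0.50 to -0.07, against a median of -0.003 over all tested genes). Among the 17975 tested genes 9175 had a shared slope below 0. The adjusted p of the members ranged from 0.0586 to 0.255 by edgeR, which called 0% of all genes. At an unadjusted p under 0.05, 34 members and 11.2% of all tested genes had a negative slope (9.64% of all a positive one), and Smc4 was the exception. The slope of Mki67 was -0.28 (edgeR adjusted p = 0.0586), that of Cdk1 -0.50 (0.0648) and that of Smc4 -0.07 (0.255). DESeq2 called 30 members lower with age, and 4.81% of all tested genes, and limma on log2(TPM + 1) called 0. Without the P7 mature neuron library edgeR called 23 members, and 3.36% of all genes, lower with age.

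Slopes were also fitted separately in each population. In progenitors the median slope of the members was -0.31 and in mature neurons -0.36, with all 35 below 0 in each. Of the 17975 tested genes 9024 had a slope below 0 in progenitors and 9221 in mature neurons. The counts at an unadjusted p under 0.05 were 30 members in progenitors (5.71% of all tested genes below 0 and 4.61% above) and 28 in mature neurons (9.39% and 8.88%), and edgeR called 0 in both after adjustment. DESeq2 called 3 members lower with age in progenitors (0.506% of all tested genes) and 18 in mature neurons (2.22% of all), and limma called 0 in both. The difference between the slopes was not called for any member (edgeR adjusted p from 0.806 to 1, DESeq2 and limma 0 members). At an unadjusted p under 0.05 it was below 0 for 0 members (2.85% of all tested genes) and above 0 for 1 (3.13% of all), Plk1, which had slopes of -0.43 in progenitors and -0.08 in mature neurons. The count below 0 varied with the setting. It was 7 members on a linear age scale and 1 with no filter on low counts. It was also 7 or 5 when the P2 or the P7 library of mature neurons was left out, and 2 when P3 of the progenitors was, with no member called after adjustment. The progenitor slope rested on the P3 library. Without it the median was -0.10, 29 of 35 members were below 0 and 1 had an unadjusted p under 0.05. In mature neurons edgeR called 16 members without the P7 library (2.85% of all genes lower) and 3 without the P2 library (0.718% of all), and 0 without the P16 library, where the median slope was -0.21.

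**Figure D5:**
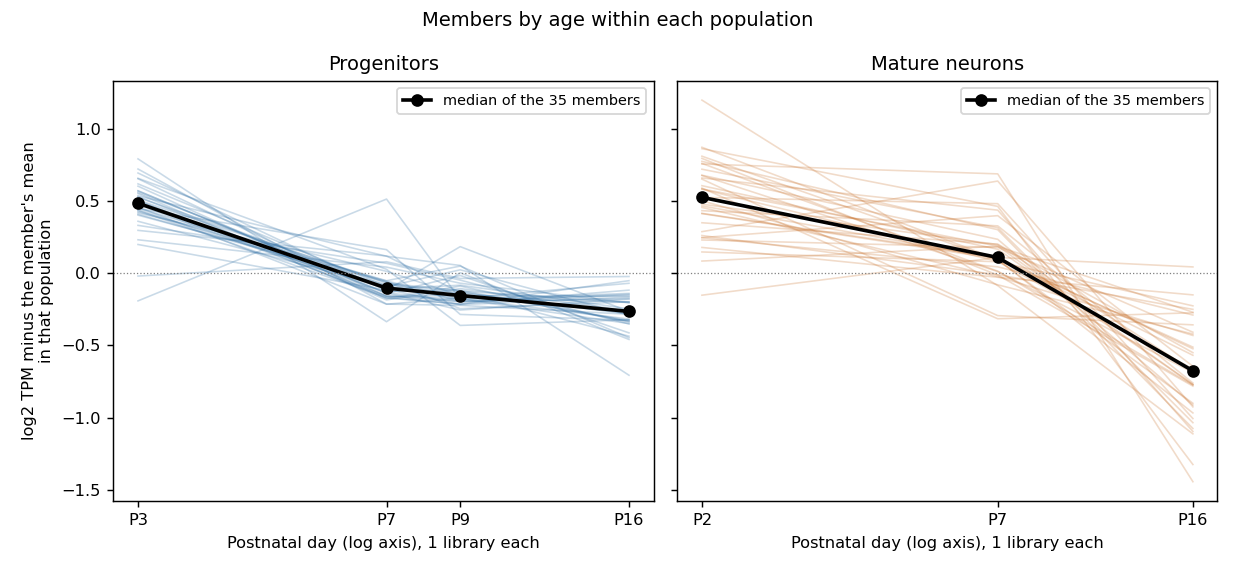
Log2 TPM of each member minus its mean in that population, by postnatal day (log axis, 1 library per age), in progenitors (left) and mature neurons (right); thin lines are members and the black line is their median. The median goes from 0.48 at P3 to -0.10 at P7 and -0.26 at P16 in progenitors, and from 0.53 at P2 to 0.11 at P7 and -0.68 at P16 in mature neurons.

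Markers of cell types also differed between the libraries. The globose basal and precursor markers summed to 1773 TPM in the P3 progenitors and to 1361, 1311 and 1255 TPM at P7, P9 and P16. In mature neurons they summed to 107, 134 and 60.2 TPM at P2, P7 and P16, while the 12 mature neuron markers summed to 15110, 16050 and 19720 TPM. In progenitors the mature neuron markers summed to 6767, 5547, 8211 and 8091 TPM at P3, P7, P9 and P16, higher in the later pair than in the earlier. The part of these shifts in the members' age pattern was not tested. Leukocyte markers (13 genes, led by Coro1a and Lyz2) ranged from 55.2 to 183 TPM in mature neurons and from 41.4 to 70.8 TPM in progenitors, and 7 erythroid genes (led by Hba-a2 and Hbb-bs) from 370 to 3036 and from 192 to 1364 TPM. Both were highest in the P16 mature neuron library, the one in which the mitosis genes were lowest. Of 12 tested leukocyte genes 9 rose in mature neurons and 1 fell, and of 6 erythroid genes 1 rose. The leukocyte gene that fell was Coro1a (log2 fold -0.95), a large part of the progenitor sums. It was at 22.0 to 27.4 TPM in progenitors and 10.7 to 15.3 TPM in mature neurons. Immature neuron markers fell 7 of 10 and 1 rose, at 2226 to 2288 TPM in mature neurons and 4595 to 5666 TPM in progenitors. The other lists were sustentacular cells (5 of 10 rose; 4592 to 6472 and 2949 to 5036 TPM), horizontal basal cells (0 of 8; 17.6 to 29.8 and 13.4 to 19.0 TPM), ensheathing glia (4 of 7 rose; 42.0 to 74.9 and 17.5 to 32.5 TPM) and endothelial cells with fibroblasts (3 of 9 rose; 76.9 to 155 and 53.9 to 92.4 TPM), with no call in the other direction. Apart from Neurod2 no marker of these lists was at 0 in every library of a population.

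Other genes of mitosis, outside the 35, were counted by function. Most genes of the spindle and cytokinesis fell (26 of 29, 2 rose, median log2 fold -2.67), among them Racgap1, the partner of Kif23 in the central spindle, at -2.75 and the kinesin Kif18a at -2.22. The 2 that rose were Kif2a at 0.48 and Ckap5 at 0.29. Regulators of mitotic entry fell 16 of 17 (median -2.03), with the phosphatase Cdc25b, an activator of Cdk1, at -2.14 and the histone kinase Haspin at -3.15, and Ensa rose (0.31). Outer kinetochore and checkpoint genes fell 20 of 21 (median -1.61), with the scaffold Knl1 at -2.35 and Trip13 at -2.50.

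Other lists had medians nearer 0. Of 16 APC/C genes 10 fell and 2 rose (median -0.26), with Anapc15 at -1.23, Anapc5 at -0.86, Cdc26 at 0.30 and Anapc13 at 0.28. Exons of Anapc15 share 1981 bases with Tomt, and those of Kif2a 1229 bases with Dimt1, both on the opposite strand. Of 16 cohesin and separase genes 12 fell and 1 rose (median -0.54), with securin, Pttg1, at -3.19, the protector of centromeric cohesion Sgo1 at -2.67 and the cohesin subunit Stag2 at 0.30. Among the condensin subunits outside the members only Ncaph, of condensin I, fell (-2.69; 1 of 4). Centriole and pericentriolar genes fell 13 of 17 (median -0.89), with Cep152 at -2.88 and Cenpj at -2.73. The largest drop of that list was that of Stil, at -5.12, larger than that of any member. The transcription factors and MuvB or DREAM subunits that control mitotic genes fell 13 of 22 and 1 rose (median -0.47), with the MuvB subunit Lin9 at -1.70, the NF-Y subunit Nfya at -0.96 and the pocket protein Rbl2 at 0.36. Beside these counts stand the 30% called lower and 28.8% called higher of all tested genes.

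The constitutive centromere genes moved both ways (15 of 19 fell, 2 rose, median -1.17). Mis18a, which prepares centromeres for new Cenpa, was at -2.03 and Cenpt, a link to the outer kinetochore, at -1.26. Hjurp, the chaperone that deposits Cenpa, rose by 2.25 on the log2 scale while Cenpa itself fell by 2.53. Hjurp was at 196, 234 and 220 TPM in mature neurons (P2, P7, P16) and at 60.4, 68.1, 55.0 and 62.2 TPM in progenitors at P3, P7, P9 and P16. Its populations did not overlap and neither showed an order by age. Cenpx, which also acts in DNA repair, rose by 0.75.

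The members lie on 12 chromosomes, with 7 of 35 on chromosome 2 (20% against 8.87% of tested genes), namely Aurka, Bub1, Bub1b, Knstrn, Nusap1, Tpx2 and Ube2c. Bub1b (118598211 to 118641591), Knstrn (118814003 to 118853957) and Nusap1 (119618298 to 119651244) are all on its plus strand in GRCm38. Of the 35 genes 10 share exon bases with a gene on the opposite strand, the longest stretch being 944 bases between Ncapg and Lcorl, and as the labels state no strand setting for the counting, reads of such pairs may be mixed.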

How the data were processed

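Read counts per gene and TPM values were used as the authors deposited them, for 7 libraries. TRIzol extraction and the TruSeq Stranded mRNA kit are named per the labels' protocols. In the submitters' processing notes stand, with no role or order, bcl2fastq 2.18, STAR 2.6.1c, RSEM and the build mm10. For strand setting, annotation release and multi-mapping rule the answer is: not given in the sources used here. Entries of the deposited count table that name no gene held 23.53% to 27.22% of each library (multi-mapping reads 11.86% to 13.91%) and stayed out of library sizes and tests. The deposited TPM table is scaled for length and to a fixed total.

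The members and lists were chosen with earlier results of these data known. Counts were tested over all genes that passed filterByExpr with edgeR 4.0.16 (TMM, quasi-likelihood, R 4.3.3), with Benjamini-Hochberg adjustment at 0.05. The models held population, population and log2 of the postnatal day, or a slope in each population, with 5, 4 and 3 residual degrees of freedom. Levels are TPM, as mean ± SD over libraries, and folds are mature neuron over progenitor. Standard errors follow from the fold and its F statistic. The fits were also run on simulated counts with the same spread for every gene and few changed genes. That run does not measure the error rates of the tests on these libraries. Alternatives were DESeq2 1.42.0, RLE size factors, no filter, limma 3.58.1 on log2(TPM + 1) and log2(TPM + 0.1), single libraries left out, age as a covariate or block, age on a linear scale, progenitors alone and a shorter promoter window. Of the other lists, the 2 called genes with the smallest p in each direction were named. Hjurp was described further, and Stil and single cell markers were named, after their values were seen. Gene positions are from GENCODE vM21 (GRCm38, the same assembly as mm10), and promoters from RefSeq on GRCm38.p6, where 30 of 35 members matched by symbol.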

Additional observations from a re-analysis of the deposited data

Results flagged for a closer look

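In 12 of 35 members 1 of the 4 progenitor libraries stood apart from the others by Dixon's criterion on TPM. Chance alone sets apart about 5% of groups whose values are drawn alike. The 4 libraries differ in age, so that share is no measure of chance here. The criterion was not run over all tested genes, of which 31.3% had P3 as the highest progenitor library in CPM. The members share the same 4 libraries, so these are not separate events. In 10 of them it was the P3 library, the highest, with Cdk1 at 75.5, Ccnb1 at 62.5, Ccnb2 at 26.8, Aurka at 32.6, Nek2 at 24.2, Cdca8 at 48.6, Cdc20 at 34.4, Cdca3 at 76.6, Tpx2 at 33.8 and Hmmr at 16.2 TPM. The nearest other library was at 39.5 TPM for Cdk1 and 21.1 TPM for Aurka, the gene with the widest relative gap (0.992 of the range). In the other 2 it was the P7 library, with Cenpf at 18.7 TPM and Smc4 at 48.4 TPM, the latter against 45.2 TPM in the next library. The sum of all members did not stand apart by this criterion (gap of 0.819 of the range).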

How the results depend on the processing

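The difference between populations kept its direction for every member under each of the 14 alternatives, and of 490 member values 485 stayed on the same side of the threshold. The 5 that did not were all of Plk1. With P7 and P16 only and age as a replicate block, 34 members were called lower, all but Plk1, and 25.7% of all tested genes. The ages are no stated pairs, and over 15577 genes the change from P7 to P16 in the 2 populations had a correlation of 0.51. On log2(TPM + 0.1) the median of all genes was -0.12, against 0.01 with counts.

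The age slopes depended on the tool. Gene counts given here are in either direction, and every member called was lower with age. For the shared slope DESeq2 called 30 members and 1523 genes (865 lower, 4.81% of all tested). No filter on low counts gave 24 members and 770 genes (455 lower, 1.39% of 32706 tested). A linear age scale gave 17 members and 1124 genes (686 lower, 3.82% of all tested). Without single libraries the counts were 0 to 23 members and 0 to 986 genes. In progenitors DESeq2 called 3 members and 143 genes, and without single libraries 0 to 3 genes were called. In mature neurons DESeq2 called 18 members and 784 genes, no filter 3 and 140, and a linear scale 14 and 1169. These settings called 2.22%, 0.165% and 4.01% of their tested genes lower. Single libraries left out gave 0 to 16 members and 0 to 815 genes in mature neurons. For the difference of slopes DESeq2 called 11 genes, none a member, and left-out libraries 0 to 2 genes. Its median over the members, -0.04, changed sign on log2(TPM + 1) (0.001993) and when the P16 library of mature neurons (0.1032) or of progenitors (0.08303) was left out, and ranged from -0.2433 to 0.1032 over left-out libraries. The causes were not tested.

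In the window from 100 bases before to 50 after the start, TTTGAA was in 20 of 30 members (66.7%, against 6.56% of tested genes), CCAAT in 20 (66.7% against 28.5%) and TTTNNCGC in 3 (10% against 4.73%). Depth limits Ccnb1 most, with 11 counts in the P16 mature neuron library.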
